A study of Mus musculus with 7 samples.

Results

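The promoters of the cytosolic ribosomal protein genes were examined as a housekeeping group in day 2 epiblast-like cells (EpiLCs) with and without Smad2/3. Members were the autosomal sites of the deposited accessibility table whose midpoint lay within 1 kb of a curated coding RefSeq transcription start site (TSS) of a gene named Rpl or Rps with a digit, or Rplp0, Rplp1, Rplp2 or Rpsa. Rps6k kinases and pseudogenes were left out. This rule uses symbols and positions, and sets no threshold on the accessibility values. It takes only listed sites, however, which were called from accessibility in WT and DKO EpiLCs. A weak site could thus be listed through the genotype where it is higher. The rule gave 81 sites, 1 for each of 81 genes, out of 73736 autosomal and 75880 listed sites. Of 85 autosomal genes that fit the symbol rule, 4 had no listed site within 1 kb (Rpl8, Rpl3l, Rpl32l and Rps27rt). The 81 genes were 42 of the large subunit, 30 of the small subunit and 9 that are not standard subunits, namely 8 paralogues or retrogenes and Rps19bp1, a gene for a binding protein that the symbol rule takes in.

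Accessibility was assayed by ATAC-seq, in which the Tn5 transposase inserts adapters into open DNA. WT EpiLCs (3 differentiations of clone CCE) were compared with Smad2/3 DKO EpiLCs (3 differentiations of clone KT15.1F6), both of strain 129/Sv//Ev and both grown for 48 h in activin A at 20 ng/ml and Fgf2 at 12 ng/ml. The DKO clone carries the Smad2 tm1Rob allele on both copies and a CRISPR deletion of Smad3. Each genotype was 1 clone, so clone and genotype cannot be told apart, and 1 library of Tn5-treated WT genomic DNA served as the control for calling sites.

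Each value is a concentration, the log2 of the mean normalized reads in a site over the libraries of a genotype, and each difference is the DKO concentration minus the WT concentration. The table holds no value per library. The depth and the spread between differentiations are therefore unknown, no test across samples could be made, and all comparisons are descriptions beside the 13500 other autosomal sites within 1 kb of a coding TSS, called the other coding promoter sites. The labels were checked at the deleted gene. The site at the Smad3 start had a concentration of 5.42 in WT and -0.10 in DKO, and the latter is the lowest DKO value in the table.

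Cytosolic ribosomal proteins are assembled with ribosomal RNA into the large and the small subunit, and their genes are transcribed at high rates in nearly all growing cells. Their mRNAs belong to the terminal oligopyrimidine (TOP) class, which begins with a C followed by a run of pyrimidines and whose translation is controlled by mTOR. Their promoters usually lack a TATA box, start transcription within a pyrimidine stretch called the TCT or polypyrimidine initiator, and hold GC-rich sequence that Sp, Ets and other general factors can bind.

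RefSeq promoter windows (GRCm38.p6, 250 bp before to 50 bp after a start) were matched by symbol to 62 of the 81 members, and 60 of these started at the TSS used for the site. The Rpl15 window started 5 bp away, and the Rpl37rt window 2306 bp away, so that it does not describe the Rpl37rt site. Those without an entry included Rpl3, Rpl7, Rpl17, Rpl21, Rpl23a, Rpl29, Rpl30, Rpl32, Rpl36, Rplp1, Rps14, Rps20, Rps27a and Rps29. The first set of sequences shows the start itself, since a pyrimidine tract there is usual for the family. Not all members carried one, and its length differed between them. Each runs from 25 bp before to 14 bp after the annotated start base, on the gene's own strand, with the longest run of C and T that overlaps the 5 bp on either side of the start in capitals.

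Rpl15 (chr14:18270972-18271011, minus strand): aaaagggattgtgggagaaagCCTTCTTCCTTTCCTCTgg
Rps10 (chr17:27635230-27635269, minus strand): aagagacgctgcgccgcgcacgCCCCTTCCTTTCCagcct
Rps18 (chr17:33955651-33955690, minus strand): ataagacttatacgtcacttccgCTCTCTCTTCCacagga
Rplp2 (chr7:141447626-141447665, plus strand): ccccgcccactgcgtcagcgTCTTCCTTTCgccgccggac
Rps24 (chr14:24490653-24490692, plus strand): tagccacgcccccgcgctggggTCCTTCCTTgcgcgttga
Rpl12 (chr2:32961687-32961726, plus strand): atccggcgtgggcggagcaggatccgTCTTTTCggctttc
Rplp0 (chr5:115559442-115559481, plus strand): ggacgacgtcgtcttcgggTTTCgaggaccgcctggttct
Rpl37 (chr15:5116588-5116627, plus strand): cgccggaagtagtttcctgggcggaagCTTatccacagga
Rpsa (chr9:120127741-120127780, plus strand): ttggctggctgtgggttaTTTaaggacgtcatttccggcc
Rpl23 (chr11:97782425-97782464, minus strand): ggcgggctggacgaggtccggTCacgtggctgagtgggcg

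The run at the start was 17 bases long in Rpl15, 13 in Rps10, 11 in Rps18, 10 in Rplp2, 9 in Rps24 and 7 in Rpl12. It was 4 bases in Rplp0, 3 in Rpl37 and Rpsa, and 2 in Rpl23, where no tract of 6 or more bases was called. Among the 62 members with a window, 32 had a tract (51.6%, Wilson 95% interval 39.4 to 63.6%), against 20.2% of the 32851 windows of the table. The median run was 6 bases in the members and 3 in all windows. The annotated start base was a C in 35.5% of the members and 16.3% of all windows, and a pyrimidine followed by a starting C and a T stood at the start of 21.0% and 3.56%, respectively. The interval covers counting error only, and a start annotated a few bases off would move a member out of these counts.

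The second set shows the region in which the sites lie, for 2 members past 1.5-fold higher (Rps10 and Rps24) and 1 of the lowest (Rpl12), for the 2 members with the highest WT level per kb (Rpl37 and Rpl15) and for Rplp2, a stalk protein gene that was lower in DKO. Each runs from 200 bp before to 9 bp after the start base, and capitals mark exact matches to the motifs given after them.

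Rps10 (chr17:27635235-27635444, minus strand): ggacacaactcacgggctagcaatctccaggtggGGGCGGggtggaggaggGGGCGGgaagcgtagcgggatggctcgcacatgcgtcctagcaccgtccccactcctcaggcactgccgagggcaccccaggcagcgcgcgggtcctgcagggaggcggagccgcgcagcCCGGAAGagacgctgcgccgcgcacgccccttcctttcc
Rps24 (chr14:24490478-24490687, plus strand): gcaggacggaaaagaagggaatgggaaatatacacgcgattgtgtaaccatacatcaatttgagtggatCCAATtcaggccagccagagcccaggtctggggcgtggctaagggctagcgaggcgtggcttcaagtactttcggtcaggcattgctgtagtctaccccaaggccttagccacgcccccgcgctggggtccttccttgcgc
Rpl12 (chr2:32961512-32961721, plus strand): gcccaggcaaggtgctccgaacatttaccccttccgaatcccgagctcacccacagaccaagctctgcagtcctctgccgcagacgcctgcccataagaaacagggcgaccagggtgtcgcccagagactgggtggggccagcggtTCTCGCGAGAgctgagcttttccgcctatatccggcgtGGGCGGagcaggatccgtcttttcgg
Rpl37 (chr15:5116413-5116622, plus strand): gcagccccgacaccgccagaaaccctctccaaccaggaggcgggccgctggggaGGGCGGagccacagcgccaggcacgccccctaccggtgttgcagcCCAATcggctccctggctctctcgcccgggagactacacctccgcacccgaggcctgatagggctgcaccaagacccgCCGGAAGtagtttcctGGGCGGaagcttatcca
Rpl15 (chr14:18270977-18271186, minus strand): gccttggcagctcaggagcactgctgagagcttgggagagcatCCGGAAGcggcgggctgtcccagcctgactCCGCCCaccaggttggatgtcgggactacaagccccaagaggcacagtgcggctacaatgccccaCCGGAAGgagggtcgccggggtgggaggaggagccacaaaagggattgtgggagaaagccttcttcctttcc
Rplp2 (chr7:141447451-141447660, plus strand): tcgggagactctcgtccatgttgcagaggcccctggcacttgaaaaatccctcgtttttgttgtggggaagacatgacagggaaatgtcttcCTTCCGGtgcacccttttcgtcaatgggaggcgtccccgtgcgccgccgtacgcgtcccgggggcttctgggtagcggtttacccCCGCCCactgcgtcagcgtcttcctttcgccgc

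The motifs were searched on both strands as CCGGAAG (GABPA/Ets), GGGCGG (Sp/Klf), CCAAT (NFY), AAGATGGC (YY1), GCGCATGC (NRF1), TCTCGCGA (BANP/ZBTB33), CACGTG (Myc E-box) and TGACGTCA (CRE). In Rps10 the Ets letters lay 29 bp before the start and Sp/Klf letters 149 and 166 bp before it. Rps24 held a single match in this stretch, CCAAT 131 bp before the start. Rpl12 held overlapping TCTCGCGA matches on both strands 54 and 52 bp before the start and GGGCGG 16 bp before it. Rpl37 held Ets letters 23 bp before the start and Sp/Klf letters 7 and 146 bp before it, Rpl15 held Ets letters at 62 and 157 bp, and Rplp2 held Ets letters at 108 bp and Sp/Klf letters at 23 bp.

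Over the 62 windows, Sp/Klf letters were found in 38 (61.3%, interval 48.8 to 72.4%, against 35.7% of all windows) and Ets letters in 23 (37.1%, interval 26.2 to 49.5%, against 8.86%). The BANP/ZBTB33 letters were in 10 windows (16.1%, interval 9.0 to 27.2%, against 0.995% of all windows). CRE and YY1 letters were each in 5 windows (8.06%, interval 3.49 to 17.5%, against 1.79% and 2.75%). Shares near those of all windows were found for NFY (32.3% against 37.4%), the Myc E-box (8.06% against 7.15%) and NRF1 (3.23% against 2.71%). TATAAA, searched on the sense strand from 40 to 15 bp before the start, was in 1 member window (Rpl22l1) and in 1.99% of all windows. The comparison windows, here and for the tract above, were all promoter windows, whether or not a listed site lay near them. Each member gene gave 1 window and had a listed site. The shares were not compared with those of accessible promoters alone, so they do not separate ribosomal protein promoters from accessible promoters in general. These are matches of letters, not measured binding.

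**Figure D1:**
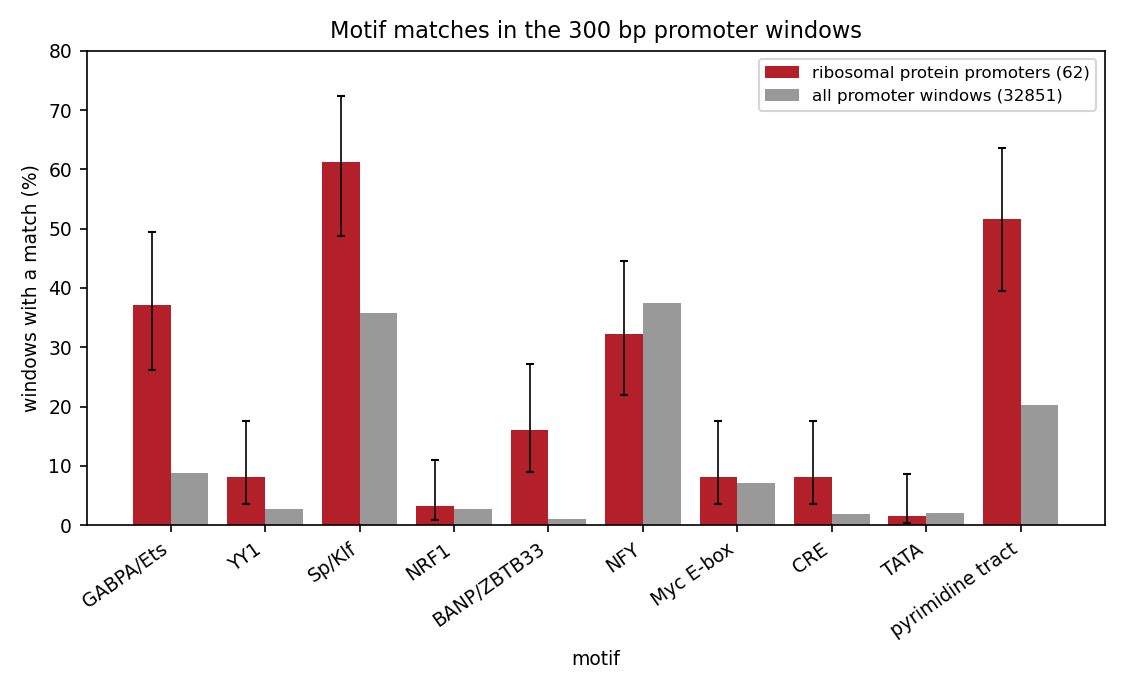
Share of promoter windows (y axis, percent) with each motif (x axis) for the 62 ribosomal protein promoters with a RefSeq window (red bars, Wilson 95% intervals) and all 32851 windows of the table (grey bars). The members stand at 61.3% for Sp/Klf, 51.6% for the pyrimidine tract, 37.1% for Ets and 16.1% for BANP/ZBTB33, with the lower end of each interval above the grey bar.

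The sites themselves were small and close to the start. Of the 81 sites, 75 spanned the TSS and 70 had their midpoint within 250 bp of it. The midpoint lay upstream in 62, with a median offset of 75 bp upstream. The median width was 560 bp (160 to 2260 bp) against 770 bp at the other coding promoter sites. The sites that did not span the start included those of Rpl12, Rps18, Rpl4, Rpl7l1 and Rpl37rt. The sites with a midpoint far from the start but inside 1 kb included those of Rpl7 (917 bp, difference 0.08), Rps21 (609 bp, 0.12), Rps15a (498 bp, 0.16) and Rpl36 (415 bp, 0.24). The nearest sites outside 1 kb were at Rpl36 (1285 bp, difference -0.03, and 1880 bp, 0.22), Rpl41 (1313 bp, -0.03), Rpl14 (1352 bp, -0.67) and Rps20 (1880 bp, 0.55).

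Most ribosomal protein promoters were somewhat more accessible in DKO than in WT. The concentration was higher in DKO at 68 of 81 members and lower at 13, with a median difference of 0.22 (1.16-fold), quartiles of 0.12 and 0.36, and a highest difference of 1.57 at Rpl39l. The other coding promoter sites had a median of 0.01 with quartiles of -0.16 and 0.17, and 50.5% of them were higher in DKO against 84.0% of the members. All autosomal sites had a median of -0.08, with 41.6% higher in DKO. Summed over the members, normalized reads were 7573 in WT and 8672 in DKO, a ratio of 1.15, against a ratio of 0.992 over the other coding promoter sites.

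**Figure D2:**
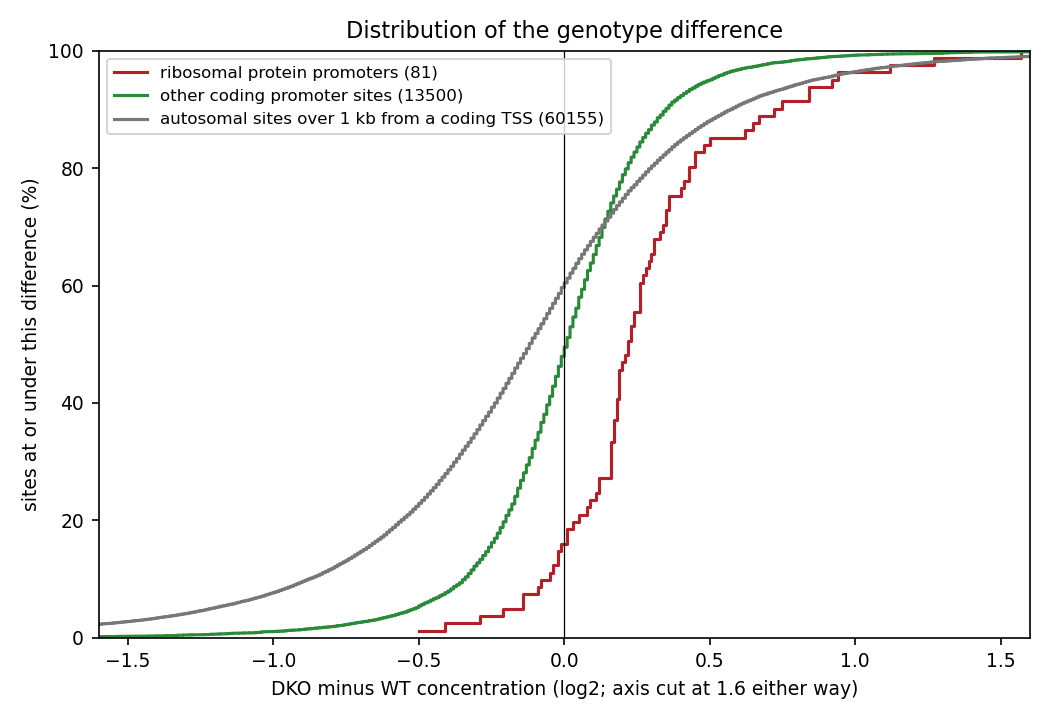
Cumulative share of sites (y axis, percent) at or under each difference (x axis, DKO minus WT concentration, log2) for the 81 ribosomal protein promoters (red), the 13500 other coding promoter sites (green) and the 60155 autosomal sites over 1 kb from a coding TSS (grey). The red curve lies to the right of the green one, with 16.0% of members under 0 against 47.9% of the other coding promoter sites.

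Past 1.5-fold (0.585 on the log2 scale), 12 members were higher in DKO and 0 were lower. Over all autosomal sites, 8.55% were higher past this fold and 16.0% lower, and over the other coding promoter sites 3.39% were higher and 3.81% lower. The members past it were thus 14.8% of the members on the higher side. In their mean normalized reads the 12 were modest sites, with 7.73 to 63.6 reads in WT and 14.8 to 114 in DKO, and they lay on 7 autosomes.

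The large subunit genes gave 6 of the 12. Rpl23a, whose protein sits at the exit of the ribosomal tunnel, had a concentration of 3.81 in WT and 5.08 in DKO, a difference of 1.27. Rpl4, whose protein lines that tunnel, had 3.78 and 4.90, a difference of 1.12. Rpl23 was the weakest of them, at 2.95 in WT and 3.89 in DKO (7.73 and 14.8 reads). Rpl14 had 5.53 and 6.28, Rpl37a 4.66 and 5.33, and Rpl10a 4.94 and 5.59. In all 6 the value in DKO was between 1.57 and 2.41 times that in WT. The Rpl4 site ended before the start and lay closer to the start of Zwilch, a kinetochore gene, at 69 bp than to that of Rpl4 at 387 bp.

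The small subunit genes gave 4. Rps24 had 4.67 in WT and 5.59 in DKO, a difference of 0.92. Rps18 had 4.30 and 5.14, and its site was shared with Vps52, whose start lay 40 bp from its midpoint. Rps10, whose protein is a target of ubiquitination on stalled ribosomes, had 5.23 and 5.95. Rps25, whose protein is used by viral internal ribosome entry sites, had 5.98 and 6.60, at a site shared with Trappc4.

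The differences on the lower side were smaller in size than the highest ones, and none passed 1.5-fold. Rpl12, whose protein forms the base of the ribosomal stalk, had 4.33 in WT and 3.92 in DKO (-0.41), at a site shared with Lrsam1. Rpl29 had 6.10 and 5.81 (-0.29). Rplp2 had 6.91 and 6.77 (-0.14). The retrogene Rpl37rt was at -0.21. The Rpl12 site was among those that did not reach the start.

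The acidic stalk genes and Rpsa had unequal differences. The stalk is the arm of the large subunit that recruits elongation factors, and Rplp0, Rplp1 and Rplp2 encode its P proteins. Rplp0, a common reference gene in expression assays, had 6.06 in WT and 6.25 in DKO (0.19). Rplp1 had 5.17 and 5.67 (0.50), the highest difference below the 1.5-fold line, while Rplp2 was lower in DKO, as given above. Rpsa, which encodes the small subunit protein also known as the laminin receptor, had 6.55 and 6.66 (0.11).

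The 9 genes outside the standard subunits spread the widest, with a median of 0.22, and 3 of 9 were lower in DKO. Rpl39l, a paralogue of Rpl39 known from the testis, had 3.43 in WT and 5.00 in DKO, the highest difference of all members (1.57). The retrogene Rpl10l, a germ-cell copy of Rpl10, had 5.99 and 6.83 (0.84). Rps19bp1 had 4.92 and 5.23 (0.31), Rps23rg1 6.99 and 7.25 (0.26), Rps27l, a p53 target, 6.76 and 6.98 (0.22), and Rpl22l1, the paralogue of Rpl22, 7.02 and 7.20 (0.18). Rpl7l1 had 3.43 and 3.39 (-0.04), Rpl36al 7.97 and 7.88 (-0.09), and Rpl37rt 3.87 and 3.66 (-0.21). The Rpl37rt site lay 217 bp into a retrogene that copies the Rpl37 mRNA. Non-unique reads were discarded, so signal may be lost where copies are near-identical, and its values are uncertain. The same limit can apply to the other retrogenes.

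**Figure D3:**
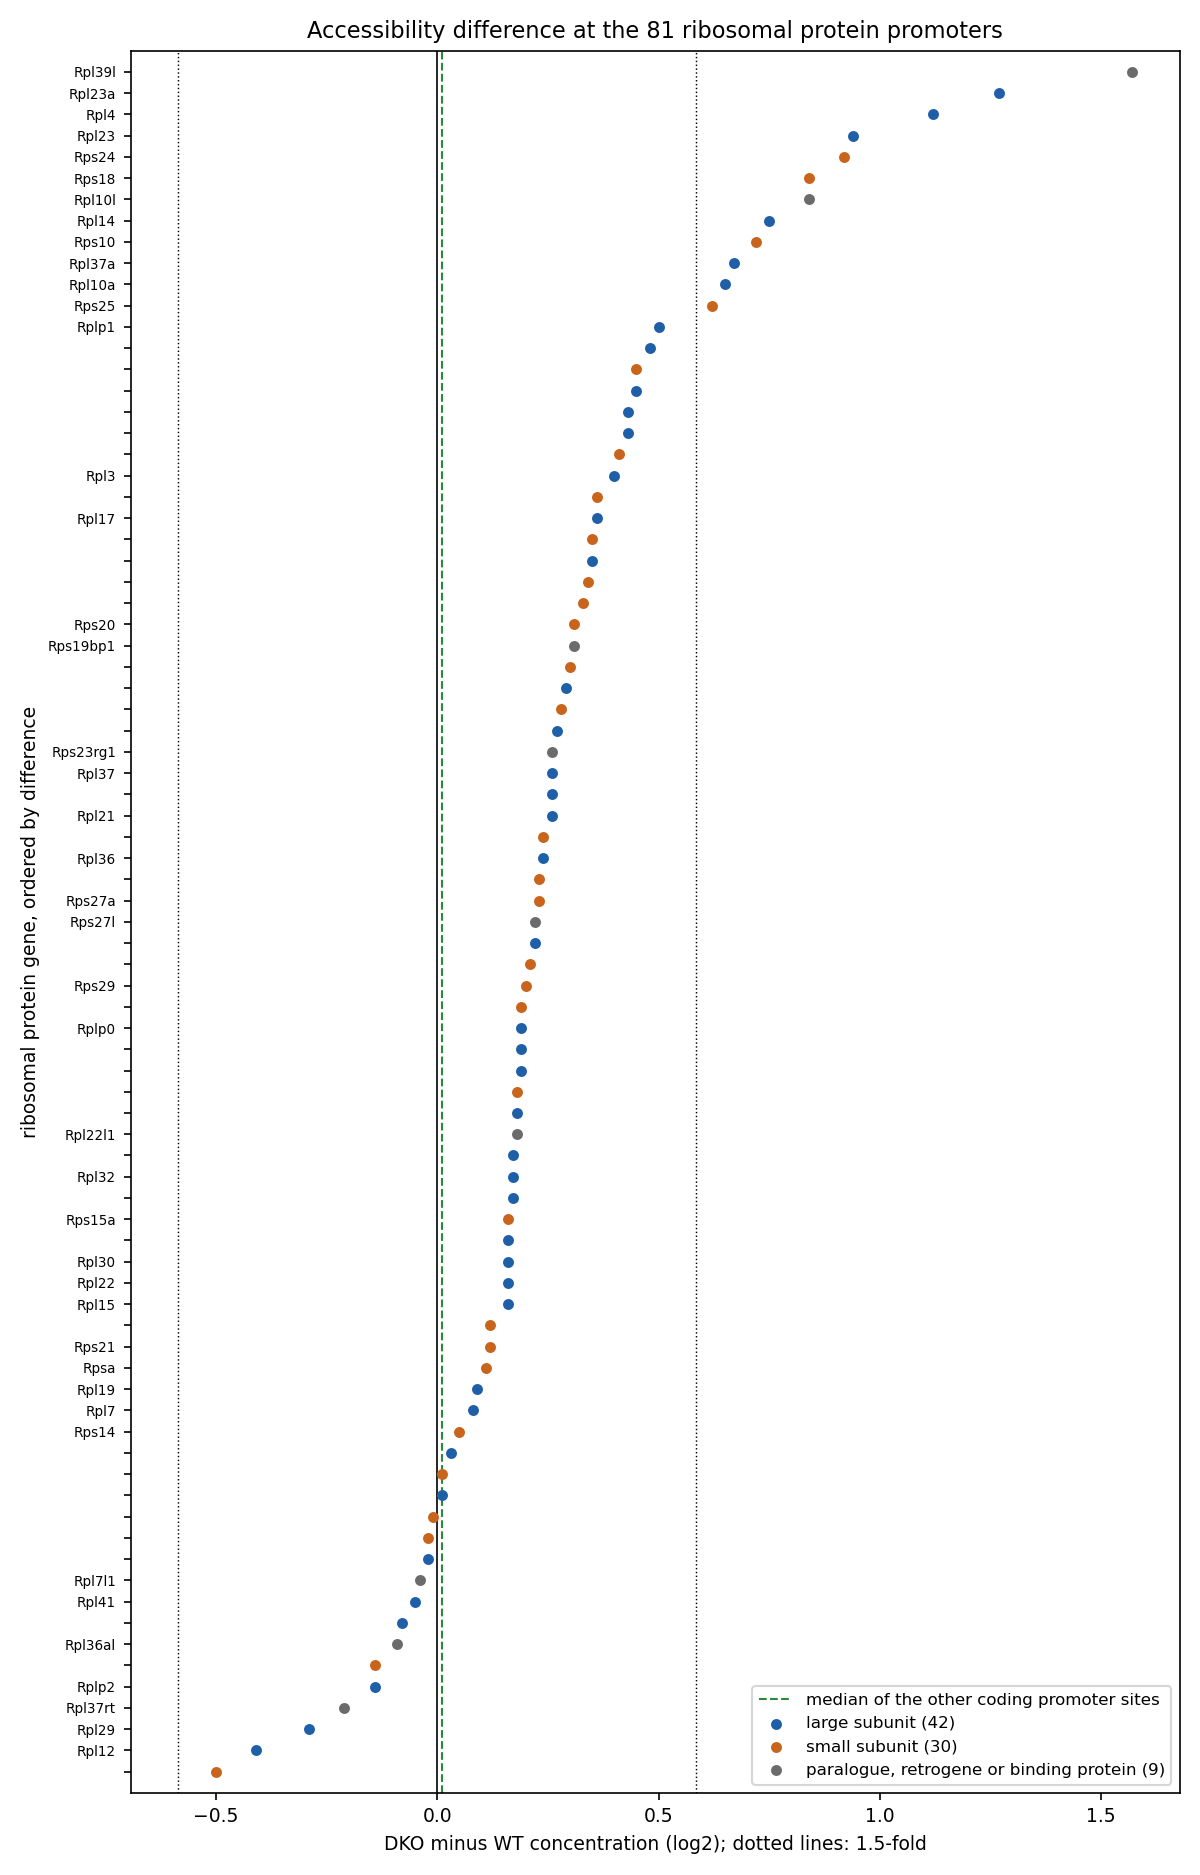
Difference in concentration (x axis, DKO minus WT, log2) for each of the 81 members (y axis, ordered), coloured by large subunit, small subunit or other, with dotted lines at 1.5-fold and a dashed line at 0.01, the median of the other coding promoter sites. Labels are given for members named in the text. The highest point is Rpl39l at 1.57, and 12 lie beyond the upper dotted line.

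The large and the small subunit differed little from each other. The 42 large subunit promoters had a median difference of 0.21 with 6 lower in DKO, and the 30 small subunit promoters a median of 0.23 with 4 lower. The median WT level per length was 104 normalized reads per kb in the large and 110 in the small subunit. The 14 sites that also lay within 1 kb of another coding gene's start had a median difference of 0.21, and the 67 others 0.22. The 75 sites spanning the start had a median of 0.23, and 9 of them were lower in DKO. Of the 6 sites that did not span it, 4 were lower in DKO and 2, at Rpl4 and Rps18, were past 1.5-fold higher.

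Other growth-related gene groups also had medians above that of the other coding promoter sites. Mitochondrial ribosomal protein genes (75 sites), which serve the separate ribosome of that organelle, had a median difference of 0.17, from -1.40 at Mrpl11 to 1.28 at Mrpl45, and 20 were lower in DKO. Genes taken by a proteasome subunit symbol (37 sites), mostly parts of the main protein-degrading complex, had a median of 0.13, and 12 were lower. The symbol rule also took in Psmc3ip (0.13). Differences ran from -0.73 at the weaker Psma6 site (concentration 4.77) to 0.55 at Psmd9. The stronger Psma6 site (concentration 6.83) was at -0.16. The 19 sites of other TOP mRNA genes, mostly translation factors, had a median of 0.23, from -0.11 at Nap1l1 to 0.63 at Fau, which encodes a ubiquitin-like protein fused to Rps30, and 3 were lower. The 20 sites of ribosome biogenesis genes had a median of 0.23, from -0.92 at Polr1a, the largest subunit of RNA polymerase I, to 0.86 at Fbl, which encodes the nucleolar methyltransferase fibrillarin, and 3 were lower. The Polr1a site (chr6:71908761) lay near the Mrpl35 site (chr6:71823631), which was lower by a like amount (-0.98). Whether the Polr1a value belongs to the gene or to this stretch of chromosome 6 was not tested. Past 1.5-fold higher were 5 mitochondrial ribosomal protein sites (6.67%), 0 proteasome sites, 1 of the other TOP genes (5.26%) and 3 of the 20 biogenesis sites. The TOP site past 1.5-fold higher is that of Fau, which is also the site of Mrpl49 and counts in both groups. The Mrpl32 site (0.18) is likewise the site of Psma2 and counts in the mitochondrial and the proteasome group. The medians of the other TOP and biogenesis genes were thus as high as that of the members, and the differences between groups were not tested.

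**Figure D4:**
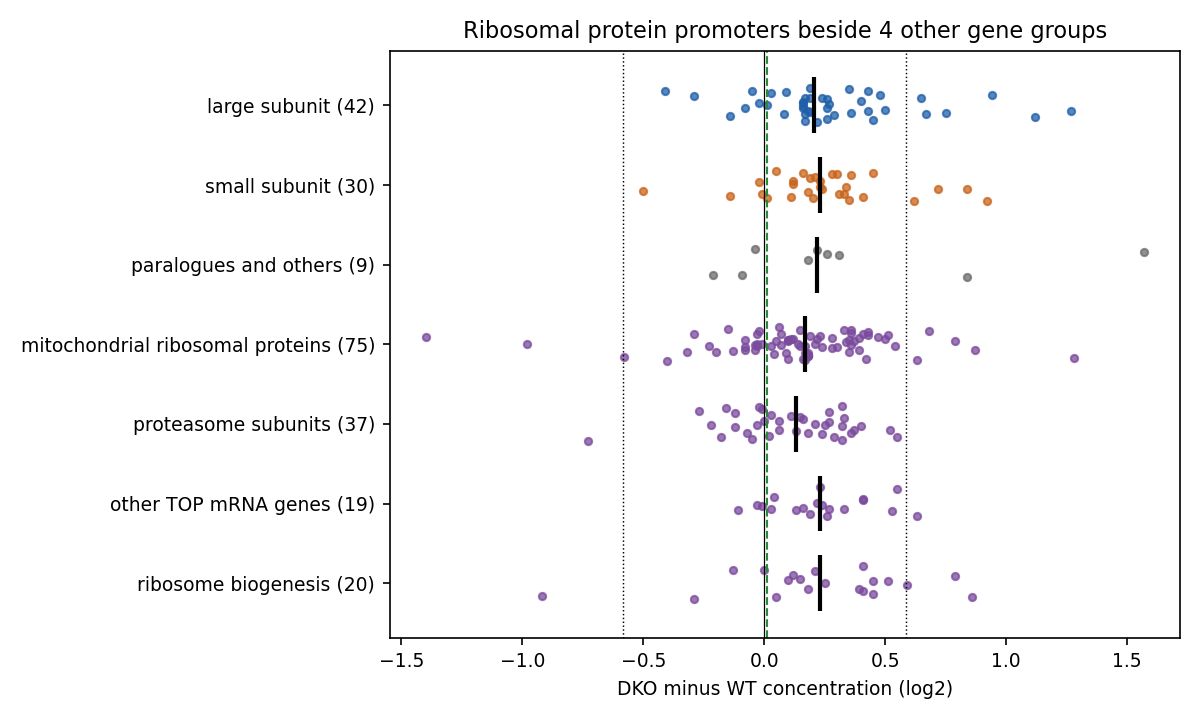
Difference in concentration (x axis, DKO minus WT, log2) at each site of the 3 classes of members and 4 other gene groups (y axis, number of sites in brackets), with a black bar at each median, dotted lines at 1.5-fold and a dashed line at the median of the other coding promoter sites (0.01). Medians lie between 0.13 for proteasome subunits and 0.23 for the small subunit, the other TOP genes and ribosome biogenesis.

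Levels were compared between genes per length, as normalized reads per kb of site in WT. The median member had 103 reads per kb (quartiles 74.8 and 170), below the 135 of the other coding promoter sites. The highest was Rpl37, with 571 in WT and 684 in DKO, followed by Rpl15 with 376 and 420. Rpl41, which encodes the shortest ribosomal protein, had 259 and 250, and Rps29 had 250.02 and 287. The lowest were Rpl39l with 33.7 in WT and 100.0 in DKO, Rpl4 with 36.2 and 78.6, Rpl19 with 41.4 and 44.1, and Rpl23a with 43.8 and 106. Of the 4 lowest in WT, 3 were thus the members with the highest differences, and Rpl19 was not. The WT level is also a term of the difference, so the measures are not independent.

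The difference was larger at members with weak sites, and the weak promoters of other genes spread more widely on both sides. In bands of the concentration over both genotypes, the 15 members under 5 had a median difference of 0.35 and the 24 members from 5 to 6 had 0.345, against -0.03 and 0.02 at the other coding promoter sites of the same bands. The 22 members from 6 to 7 had 0.19 against 0.04, and the 20 members at 7 or more had 0.175 against 0.00. Past 1.5-fold higher were 5 of 15, 5 of 24, 2 of 22 and 0 of 20 members, where the other coding promoter sites had 14.3%, 4.91%, 1.17% and 0.23%. In the highest band, 17 of 20 members were higher in DKO and 14 lay above the upper quartile of the other sites (0.12). Over all bands, 48 of 81 members (59.3%) lay above the upper quartile of their band. Across the 81 members, the difference had a Spearman rho of -0.33 with the concentration and -0.46 with the WT level per kb, which shares the WT term, against -0.04 and -0.16 over the 13500 other sites.

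**Figure D5:**
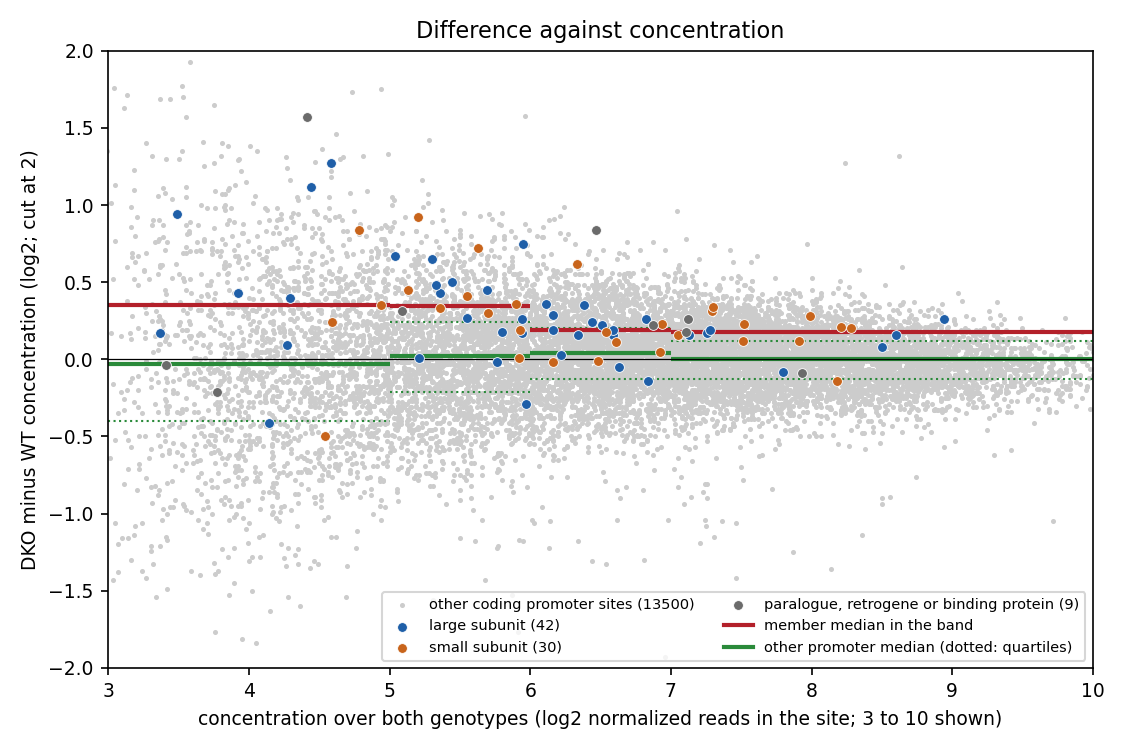
Difference (y axis, DKO minus WT, log2) against the concentration over both genotypes (x axis, log2 normalized reads in the site) for the members (coloured points) and the other coding promoter sites (grey), with the member median (red) and the median and quartiles of the other sites (green) in each band. The red line stands above the green line in all 4 bands, by 0.38, 0.325, 0.15 and 0.175 from left to right.

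GC content was computed for each site from the reference genome, since it can bias amplification and its part in these differences was not tested directly. The members had a median GC content of 58.4% and the other coding promoter sites 62.2%. Among the other sites the difference was higher at higher GC (Spearman rho 0.15), while across the members rho was -0.08. Within bands of GC content the members stayed above the other sites. The medians were 0.26 against -0.05 from 50 to 55% (17 members), 0.22 against -0.01 from 55 to 60% (23 members), 0.19 against 0.01 from 60 to 65% (29 members) and 0.22 against 0.05 at 65% or more (8 members). The 4 members under 50% had a median of 0.215 against -0.12.

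Sites around the members had lower differences than the members. Against the median of the other coding promoter sites within 2 Mb, 65 of 81 members were higher, and the median gap was 0.18. The 170 sites within 20 kb of a member's start that lay over 1 kb from any coding TSS had a median difference of -0.11, and 70 of them were higher in DKO and 99 lower. This was close to the median of -0.12, with 39.5% higher, over all autosomal sites over 1 kb from a coding TSS. The neighbourhood was itself raised at Rpl10a and Rps10 on chromosome 17, where the other promoters within 2 Mb had medians of 0.47 and 0.39, so that Rpl10a and Rps10 stood 0.18 and 0.33 above them. Rpl23a, Rpl4 and Rpl39l stood 1.14, 0.96 and 1.59 above theirs. The member median was above 0 on 17 of the 18 autosomes that held a member, from 0.54 on chromosome 14 (2 members) to -0.035 on chromosome 2 (4 members), while the medians of the other coding promoter sites ranged from -0.07 to 0.09 by chromosome.

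Members that carried the sequence features had mostly lower median differences than those without them. Members with a pyrimidine tract had a median of 0.185 (32 windows) and those without one 0.27 (30 windows). The medians were 0.19 with and 0.26 without Ets letters, 0.19 with and 0.32 without Sp/Klf letters, and 0.18 with and 0.26 without BANP/ZBTB33 letters. Of the 12 features searched, 11 had the lower median where the feature was present. The exception was NRF1, with 2 windows (0.415 with and 0.225 without). Some of the 11 also rest on few windows, with 1 for TATAAA and 5 each for YY1, the Myc E-box and CRE. The tract, the starting C and the pyrimidine, C and T at the start score much the same bases. The Rpl37rt window, which does not describe its site, counts under NFY and the starting C. The features overlap in the same windows, and the differences between these medians were not tested. Of the sequences printed above, Rps10 and Rps18 carried long tracts and were past 1.5-fold higher, while Rplp2 carried a tract of 10 bases and was lower.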

How the data were processed

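The table was made by the authors. Per the study's methods, paired-end ATAC-seq reads were aligned to mm10 with Bowtie2, non-unique and blacklisted reads were discarded, and PCR duplicates were removed with SAMtools. Sites were called with DANPOS2 from the triplicates and a Tn5 genomic DNA control, and reads were compared with DiffBind, whose version and normalization are not given in the sources used here. The authors deposited log2 concentrations per site, 1 mean per genotype and 1 overall. The authors' own fold, p-value and FDR columns of the DKO against WT comparison were not used. Whether read ends were shifted for the Tn5 offset is not given either. Discarding non-unique reads lowers the signal where a gene has near-identical copies, and ribosomal protein genes have many processed pseudogenes. How much was lost at these sites was not tested.

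Differences are DKO minus WT concentrations at 2 decimals, and levels per length are reads (2 to the power of the concentration) per kb of site. Starts, counted from 0 in the table, are printed counted from 1. Site midpoints were matched within 1 kb to 26032 TSSs of 21000 genes with curated coding transcripts in GRCm38.p6, the assembly of mm10. GC content came from the same assembly, and motifs were exact matches in RefSeq promoter windows. Without values per library, depth is unknown and neither a test nor an error over differentiations could be computed. The match of sites to genes, the medians and the offsets were tested on simulated data. Python 3.11.15, numpy 2.4.6, pandas 2.3.3 and matplotlib 3.10.9 were used.

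The members and lists were chosen with earlier results of these data known. Named members were the 5 highest and 5 lowest differences, the 4 highest and 4 lowest WT levels per kb, every member past 1.5-fold, members with several sites (0 were found), Rplp0, Rplp1, Rplp2 and Rpsa, every gene outside the standard subunits, and the 5 sites nearest to 1 kb on either side. A few members that fall under this rule are counted but not reported here by name. Alternatives were other distances, gene and transcript sets, a concentration minimum, means, centring, other folds, other comparison sites, a shorter motif window and leaving out chromosome 6.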

Additional observations from a re-analysis of the deposited data

How the results depend on the processing

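The median difference of the members stayed above 0 in each of 14 alternatives, between 0.18 and 0.276, and 11 of them moved it by at most 0.01. Taking 1 site per gene kept the same 81 sites and so could not move it. Leaving out chromosome 6 kept 80 of them. Most other alternatives also reuse largely the same sites, so the 14 are not independent checks. The mean in place of the median gave 0.276, and a gap of 0.274 to the mean of the other coding promoter sites. The gap between medians was 0.30 against all listed sites. Alternatives chosen after seeing the data were centring on the promoters within 2 Mb (0.18) or of the same chromosome, leaving out shared sites, sites that span the TSS, and a minimum concentration of 6. The last left 42 members, with a median of 0.185 and a gap of 0.175 to the other coding promoter sites. Of these members, 7 were lower in DKO and 2 past 1.5-fold higher. In the bands from 6 to 7 and at 7 or more, 56.2% and 48.2% of the other coding promoter sites were higher in DKO. Past 1.5-fold higher were 1.17% and 0.23% of them. Centred on all sites, 7 members were lower in DKO. The count past the fold threshold followed the threshold, with 32 higher and 3 lower at 1.2-fold and 3 higher and 0 lower at 2-fold. The shares of other sites past 1.2-fold and 2-fold were not computed, so these counts cannot be read against them. The median WT level was 129.7 reads per kb as a mean, 168.4 in those 42 members, 5.99 as a concentration and 63.6 as reads of the whole site. In the window from 100 bp before to 50 bp after the start, the share of members was 48.4% for Sp/Klf letters (28.8% of all windows) and 1.61% for the Myc E-box (4.35% of all windows), and among core genes it was 0.0% for TATAAA. Over the 60 windows that start at the TSS used, an alternative chosen after seeing the data, each share stayed within its interval. No paired analysis was possible because the table holds 1 mean per genotype and no value per differentiation. For the same reason no differentiation could be left out. The spread between differentiations, and so whether a difference near the median of 0.22 exceeds it at any 1 promoter, is unknown.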

Other observations

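The 4 X-linked genes that fit the symbol rule lay outside the autosomal members and are given as values. Rps4x had a concentration of 3.44 in WT and 4.12 in DKO, a difference of 0.68 at a weak site. Rpl36a had 6.48 and 6.64 (0.16), Rpl10 6.96 and 7.06 (0.10), and Rpl39 6.24 and 6.23 (-0.01). Rpl39 and its autosomal paralogue Rpl39l, which had the highest difference of all members, thus had differences of -0.01 and 1.57, and Rpl10 and its retrogene Rpl10l of 0.10 and 0.84.

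Of the autosomal genes without a listed site within 1 kb, Rpl8 is a standard large subunit gene. The site nearest to its start lay 4151 bp away and had a concentration of 2.98 in WT and 4.25 in DKO, a difference of 1.27. The nearest sites lay 3211 bp from the start of Rps27rt (0.09), 3391 bp from a start of Rpl3l, the muscle paralogue of Rpl3 (0.68), and 13831 bp from that of Rpl32l (-0.12).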
